A study of Homo sapiens with 8 samples.

Results

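The KLF genes encode transcription factors with zinc fingers near the C-terminus that bind GC-rich and CACCC-type DNA. Here, 10 of them (KLF1, KLF2, KLF3, KLF4, KLF5, KLF6, KLF7, KLF9, KLF10 and KLF13) were described by the peaks of the histone marks H3K4me3 and H3K27ac over each gene. They were listed by name, with earlier results of these data known, out of 20090 protein-coding genes on chromosomes 1 to 22 and X. The marks were mapped by ChIP-seq in HL-60, a human leukemia cell line of promyelocyte-like cells that differentiates towards granulocytes under all-trans retinoic acid (ATRA). The ATRA group received 1 µM ATRA for 4 days, and the control group received its solvent, ethanol, for the same 4 days. Each mark had 2 replicates per group, and the 8 libraries come from this single cell line, with no statement in the labels that replicates were separate cultures.

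H3K4me3 marks the nucleosomes around the transcription start sites (TSS) of genes that are active or poised, and H3K27ac marks active promoters and enhancers. Family members differ in what they recruit. KLF1, KLF2, KLF4, KLF5, KLF6 and KLF7 mostly act as activators through acetyltransferases, KLF3 represses through the corepressor CtBP, and KLF9, KLF10 and KLF13 carry a domain that binds the corepressor Sin3. In blood cells, KLF1 drives erythroid genes, KLF2 keeps lymphocytes quiescent and restrains myeloid activation, and KLF4 promotes monocyte differentiation.

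The sequences shown first come from members picked for their H3K27ac within 5 kb of the TSS. The KLF2 promoter is followed by the last 300 bases of an H3K27ac stretch upstream of KLF2. Both ATRA libraries and neither control library carried that stretch. Next is the promoter of KLF9, where the H3K27ac length within 5 kb of the TSS was lower in ATRA. Last is the KLF4 promoter, which carried H3K4me3 alone. For KLF2 and KLF9 the contrast is that of the wider window, not of the printed promoter. The upstream stretch and KLF4 were chosen after their values were seen. Promoters run from 250 bases before to 50 bases after the annotated TSS on GRCh37, the genome of the hg19 build, and are read 5′ to 3′ in the direction of transcription. Capitals mark every match on either strand to any of 5 motifs. The GC box, which SP and KLF factors bind, was searched as GGGCGG. The CACCC box, another KLF binding sequence, was searched by the letters of its name. The MEF2 site was searched with any base at its inner 4 positions. The TATA box, which places the transcription machinery on some promoters, was searched as TATAAA. The element bound by nuclear receptors, the family of the retinoic acid receptors, was searched as AGGTCA.
KLF2 promoter, chr19:16435387-16435686, plus strand: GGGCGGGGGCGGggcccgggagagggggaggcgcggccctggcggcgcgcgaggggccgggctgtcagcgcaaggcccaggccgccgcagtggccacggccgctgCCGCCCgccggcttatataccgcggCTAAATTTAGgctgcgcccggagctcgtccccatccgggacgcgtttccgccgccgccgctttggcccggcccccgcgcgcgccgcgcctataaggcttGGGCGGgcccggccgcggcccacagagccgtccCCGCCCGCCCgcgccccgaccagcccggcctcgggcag
KLF2 upstream stretch, chr19:16434976-16435275, plus strand: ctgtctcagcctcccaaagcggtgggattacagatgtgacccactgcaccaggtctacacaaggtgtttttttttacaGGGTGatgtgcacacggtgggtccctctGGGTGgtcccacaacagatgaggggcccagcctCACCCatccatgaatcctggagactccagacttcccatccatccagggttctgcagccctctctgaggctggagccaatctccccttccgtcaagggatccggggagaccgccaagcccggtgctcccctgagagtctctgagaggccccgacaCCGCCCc
KLF9 promoter, chr9:73029524-73029823, minus strand: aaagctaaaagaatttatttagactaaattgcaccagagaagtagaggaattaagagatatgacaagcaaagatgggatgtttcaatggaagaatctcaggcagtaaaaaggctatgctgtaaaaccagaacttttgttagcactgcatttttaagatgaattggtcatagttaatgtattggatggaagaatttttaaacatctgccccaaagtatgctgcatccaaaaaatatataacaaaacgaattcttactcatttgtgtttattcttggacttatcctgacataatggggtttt
KLF4 promoter, chr9:110252001-110252300, minus strand: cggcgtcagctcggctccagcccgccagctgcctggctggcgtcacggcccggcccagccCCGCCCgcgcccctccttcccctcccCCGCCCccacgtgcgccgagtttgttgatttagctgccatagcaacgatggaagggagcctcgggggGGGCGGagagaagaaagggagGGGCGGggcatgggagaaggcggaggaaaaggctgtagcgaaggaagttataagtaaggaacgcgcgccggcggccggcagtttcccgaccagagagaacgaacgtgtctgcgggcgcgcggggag

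The KLF2 promoter held 6 matches to the GC box, of which those at bases 12 to 17 and 16 to 21 after the TSS overlapped, and a match to the MEF2 site at positions -120 to -111 from the TSS. A MEF2 site was found in the promoters of 2.26% of all protein-coding genes and of no other KLF gene listed here. The GC content of the KLF2 promoter was 80.7%, above that of 96.6% of all promoters, whose median was 63.7%. The KLF9 promoter stood at the other end, with a GC content of 32.7%, above that of 0.846% of promoters, and with a match to none of the 5 motifs. The KLF4 promoter held 4 GC boxes. Over the family, 7 of 10 promoters held a GC box and 6 of 10 a CACCC box, beside 61.0% and 63.6% of all promoters. The TATA box (9.82% of all promoters) and the nuclear receptor element (11.3%) were found in none of the 10. A match describes the letters and is not evidence of a bound factor.

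The measure used for each gene was the length under peaks, in bp, in each library. It was taken over the gene body plus 20 kb on each side and in a window of 5 kb on each side of the TSS (10001 bp), which is the same length for every gene. Peak positions carry no read counts, so the depth of the libraries is unknown and no counting interval could be given. A longer peak in each cell and a larger share of cells with the mark cannot be told apart in such data. A gene was called higher in ATRA when both ATRA libraries were above both control libraries, and lower in the opposite case, because an exact permutation test of 2 against 2 libraries cannot go below a two-sided p of 0.33. Log2 changes are ratios of the means after adding 1000 bp, which shrinks them for short peaks. The group of each library was taken from its label, and every direction rests on these labels. A test with limma across all genes with a mean of at least 1000 bp gave the adjusted p-values (Benjamini-Hochberg).

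The libraries differed in total. H3K4me3 peaks covered 62.3 to 63.2 Mb in ATRA and 47.7 to 59.8 Mb in control, and H3K27ac peaks 64.8 to 86.1 Mb in ATRA and 28.8 to 54.0 Mb in control. The median log2 change of all tested genes was therefore above 0, at 0.16 for H3K4me3 and 0.54 for H3K27ac over the gene body plus 20 kb. Of all protein-coding genes, 30.1% were higher and 2.46% lower in H3K4me3, and 33.7% were higher and 2.97% lower in H3K27ac. After each library was scaled to the mean total of its mark, these shares were 11.6% and 18.5% for H3K4me3 and 14.1% and 19.3% for H3K27ac, so directions are given below on both scales. Among markers, H3K4me3 lay over the TSS of 3 to 4 of 6 promyelocyte genes in every library and of 0 of 4 erythroid and 0 of 3 epithelial genes, and ELANE, a promyelocyte marker, carried neither mark at its TSS in any library. Granulocyte genes carried H3K4me3 at 3 of 5 TSS in ATRA and 1 of 5 in control, and lymphoid genes at 0 to 1 of 4 for H3K4me3 and 1 to 3 of 4 for H3K27ac.

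Over the gene body plus 20 kb, H3K27ac was higher in ATRA at 6 of the 10 KLF genes (KLF1, KLF2, KLF3, KLF6, KLF10 and KLF13), overlapped between the groups at 4, and was lower at 0. The shares over all protein-coding genes were 33.7% higher and 2.97% lower. Among the 12834 genes with a mean of at least 1000 bp, 48.8% were higher. Of the 10, 8 passed the filter of a mean of 1000 bp, KLF1, KLF2 and KLF10 only through their ATRA libraries, so that a member like these had to differ in order to be tested. H3K4me3 was higher at KLF3 (30.1% of all genes), lower at KLF5 (2.46% of all genes) and overlapping at the other 8, and all 10 passed the filter. The median log2 change of the 10 genes was 0.67 for H3K27ac and 0.15 for H3K4me3. After scaling, the medians were 0.02 and -0.05, and H3K27ac was higher at KLF2 and KLF3 and lower at KLF9.

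**Figure D1:**
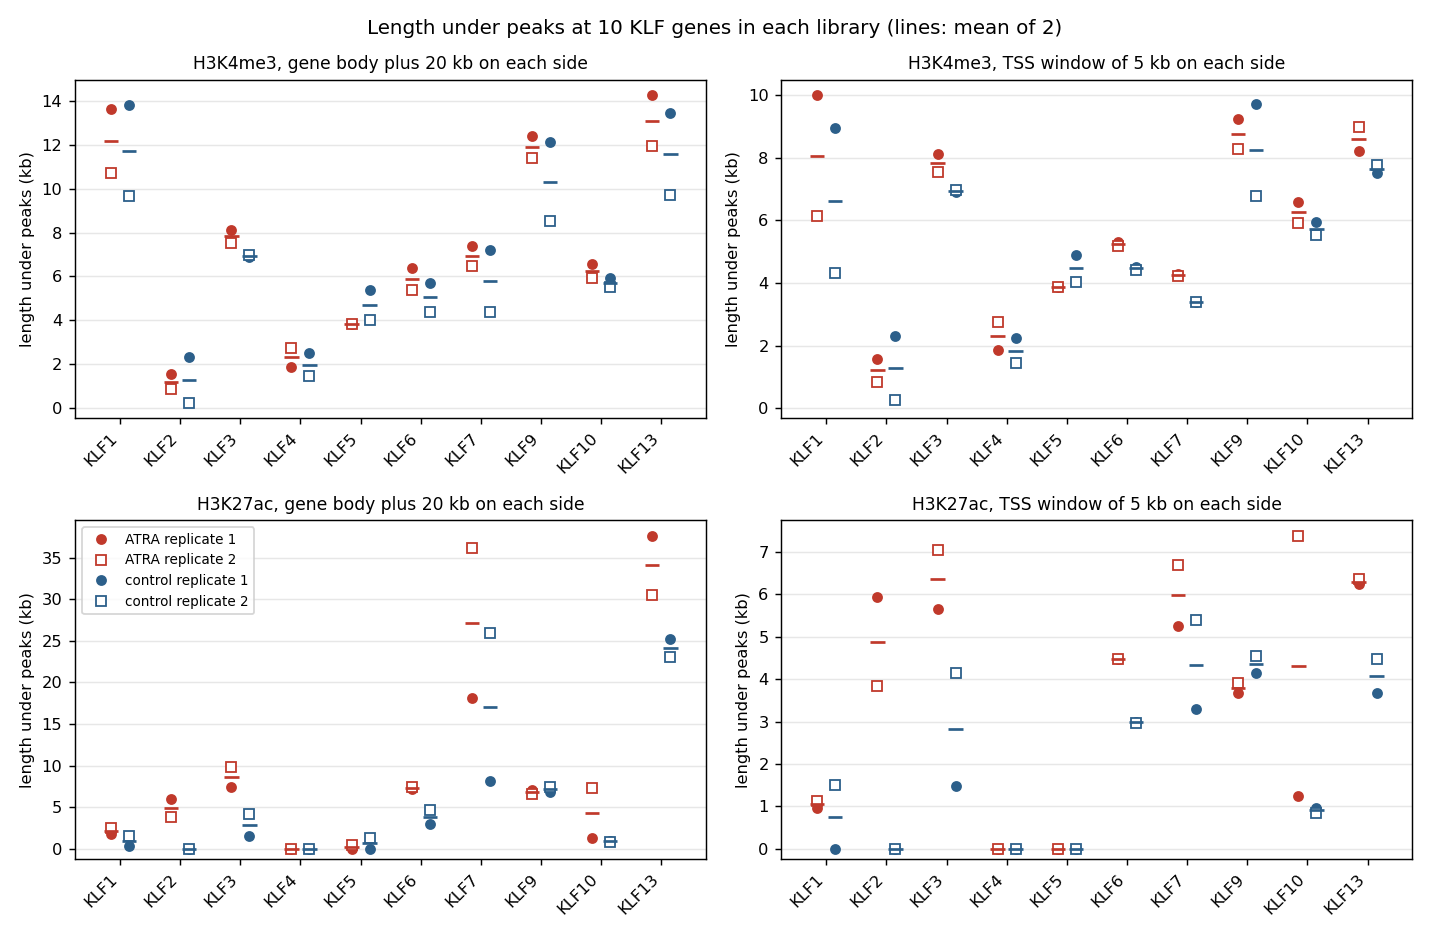
Length under peaks (kb, vertical axes) at each of the 10 KLF genes for H3K4me3 (top) and H3K27ac (bottom), over the gene body plus 20 kb (left) and in the TSS window (right). Circles are replicate 1, squares replicate 2, red ATRA, blue control and short lines the mean of 2 libraries. For H3K27ac at KLF2 both control libraries sit at 0 and both ATRA libraries above 3800 bp, whereas KLF4 sits at 0 in all 4.

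In the TSS window, H3K27ac was higher at 5 KLF genes (KLF2, KLF3, KLF6, KLF10 and KLF13; 20.8% of all genes) and lower at KLF9 (2.42% of all genes). H3K4me3 was higher at KLF3, KLF6, KLF7 and KLF13 (23.9% of all genes) and lower at KLF5 (2.70% of all genes). The scaled values left H3K27ac higher at KLF2 and KLF3 (7.58% of all genes) and lower at KLF7 and KLF9 (17.8% of all genes). They left H3K4me3 lower at KLF5 (16.2% of all genes) and higher at 0 members (8.45% of all genes), and the other members overlapped in either mark.

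With limma, none of the KLF genes passed the adjusted threshold of 0.05 for either mark. For H3K27ac the test called 0% of 12834 genes (0 genes, with 2658 at an unadjusted p under 0.05), and for H3K4me3 0.110% of 13635 genes.

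Among the activators, KLF2 had the largest H3K27ac log2 change of the family over the gene body plus 20 kb. The length under H3K27ac peaks was 5946 and 3869 bp in ATRA and 0 and 0 bp in control over the gene body plus 20 kb. All of the control libraries were thus at 0 and the groups did not overlap, before and after scaling. The limma log2 difference of 2.54 ± 0.46 (SE, n = 2 per group) did not pass the threshold, with an adjusted p of 0.0784, and since KLF2 entered the fit only through its ATRA libraries this p is no support for a difference. The ratio of means was 2.56 on the log2 scale. H3K27ac in the TSS window of both ATRA libraries and of neither control library was found at 620 protein-coding genes, or 3.09%, and at no other KLF gene listed here. With either ATRA replicate left out, that ratio was 2.28 or 2.80. Because the control libraries were at 0, its size depends on the bp added, and it was 4.67 with 200 bp and 0.99 with 5000 bp. With a flank of 50 kb in place of 20 kb, which takes in control peaks farther out, it was 0.71. KLF10 (1.34), KLF3 (1.33), KLF6 (1.25), KLF4 (0.95) and KLF7 (0.75) were then above KLF2. The KLF2 peaks had low deposited −log10 q values, of 0.858 to 4.23, and under a minimum of 5 no H3K27ac was left in any library. Such values were common, since only 12.8% to 16.9% of all H3K27ac peaks of a library reached 5.

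KLF2 lies on chromosome 19 (16435637 to 16439496, plus strand), in coordinates of hg19 as for all genes here. Its H3K27ac in ATRA formed a pair of peaks on either side of the TSS. The stretch shared by both ATRA libraries upstream, whose last 300 bases are printed above, ran over 888 bp from -1249 to -362 from the TSS. The stretch inside the gene ran over 2517 bp from 2106 to 4622 bases after the TSS, past the 3′ end of the 3860 bp gene. The promoter printed above lay in the gap between them, and none of the 4 H3K27ac libraries had a peak over the TSS itself. In control, the nearest H3K27ac peak was 40269 bases downstream in replicate 1 and 30764 bases upstream in replicate 2.

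H3K4me3 at KLF2 was short in every library and overlapped between the groups, at 1565 and 851 bp in ATRA and 2318 and 245 bp in control. It was found in the same flanks, and only control replicate 1 had an H3K4me3 peak over the TSS, of 831 bp, and 0.669% of the TSS peaks in that library were shorter. The log2 difference was 0.10 ± 0.57 (SE, n = 2 per group), with an adjusted p of 0.948 by limma.

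**Figure D2:**
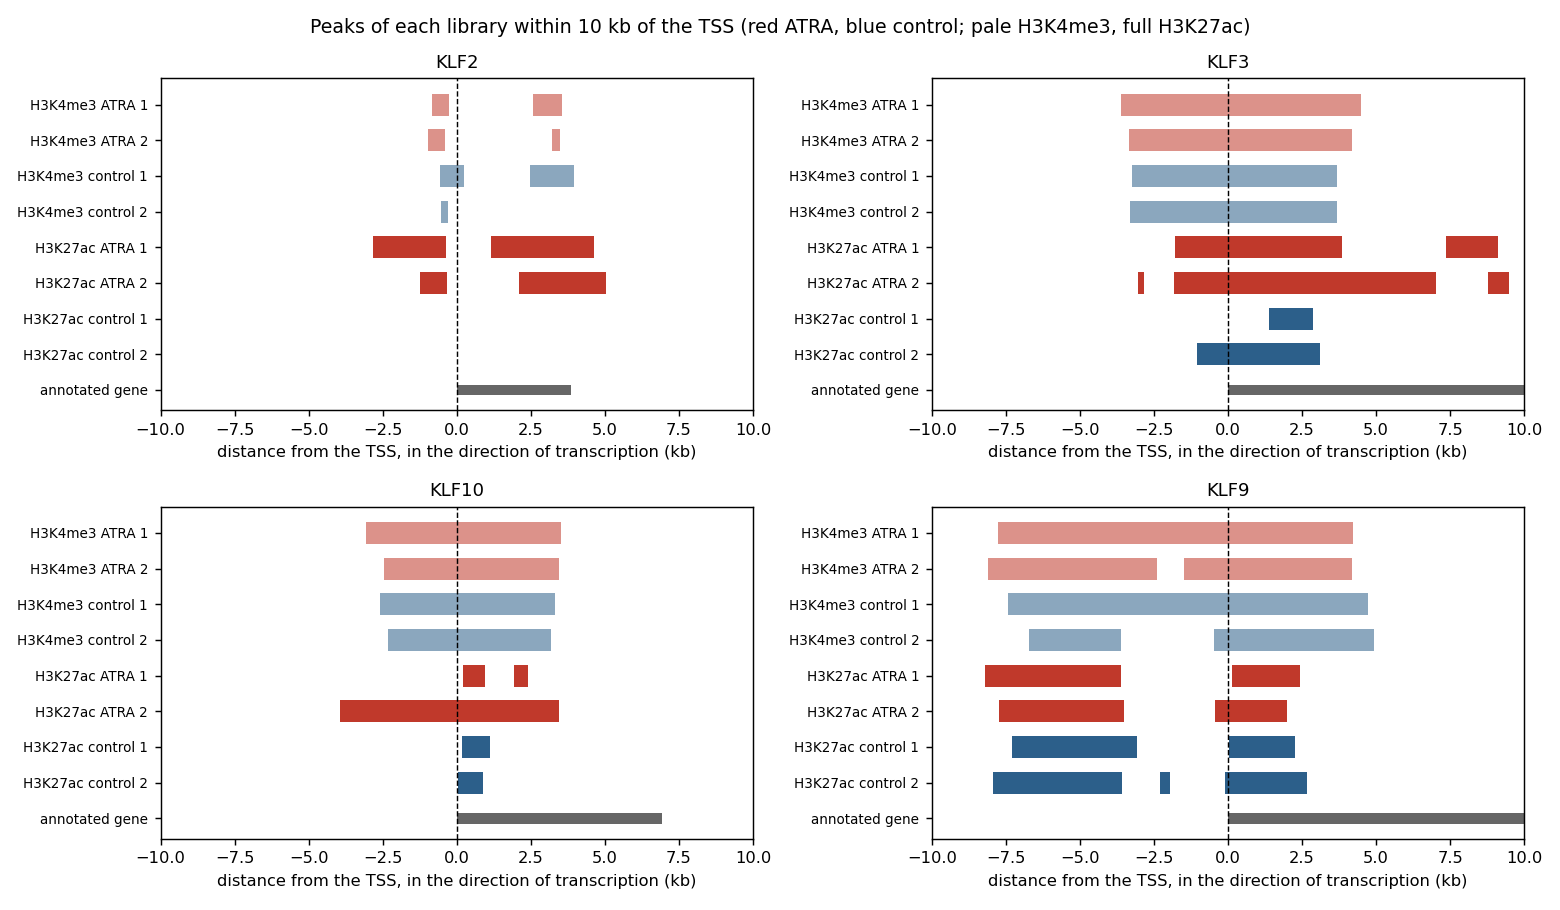
Peaks of each library (rows) by distance from the TSS (horizontal axis, kb, in the direction of transcription) at KLF2, KLF3, KLF10 and KLF9, with ATRA in red, control in blue, H3K4me3 pale, H3K27ac full and the annotated gene in grey. At KLF2 the H3K27ac rows of control are empty within 10 kb and the ATRA rows hold a peak on each side of the TSS, while at KLF9 all 4 libraries hold the same pair of H3K27ac stretches.

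KLF6 (chromosome 10, 3818188 to 3827473, minus strand), a widely expressed factor induced early by many stimuli, carried H3K4me3 over its TSS in all 4 libraries and H3K27ac over it in both ATRA libraries and control replicate 1. The nearest H3K27ac peak of control replicate 2 began 320 bases downstream. In the TSS window, H3K27ac covered 4465 and 4472 bp in ATRA and 2987 and 2975 bp in control. H3K4me3 covered 5321 and 5190 bp in ATRA and 4522 and 4403 bp in control. The groups did not overlap in either mark. Over the gene body plus 20 kb H3K27ac covered 7198 and 7448 bp in ATRA and 2987 and 4722 bp in control. In the TSS window the log2 differences were 0.46 ± 0.26 for H3K27ac and 0.20 ± 0.11 for H3K4me3 (SE, n = 2 per group), with adjusted p-values of 0.528 and 0.49 by limma. Scaled values overlapped for both marks, so the separation at KLF6 rested on the unscaled lengths. A distal H3K27ac peak, within positions -22062 to -17097 from the TSS, was found in both ATRA libraries and in control replicate 2.

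KLF7 (chromosome 2, 207938861 to 208038580, minus strand), known for its part in neuron development, had the longest H3K27ac of the family in replicate 2 of either group, at 18190 and 36171 bp in ATRA and 8150 and 26007 bp in control over the gene body plus 20 kb. The groups overlapped, since replicate 2 was above replicate 1 in both. The log2 difference was 0.76 ± 0.64 (SE, n = 2 per group), with an adjusted p of 0.55 by limma. Single libraries decided its size, since the log2 ratio of means was 0.64 with all 4, 0.06 without control replicate 1, 1.62 without control replicate 2, 1.04 without ATRA replicate 1 and 0.09 without ATRA replicate 2, and -0.12 after scaling. Most of this length lay in the gene, where a single peak reached 16581 bp in ATRA replicate 2 and 11755 bp in control replicate 2. H3K4me3 in the TSS window was nearly equal between replicates, at 4274 and 4205 bp in ATRA and 3403 and 3384 bp in control, and did not overlap between the groups, with a log2 difference of 0.25 ± 0.12 and an adjusted p of 0.446 by limma. Scaled, it overlapped.

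KLF4 (chromosome 9, 110247133 to 110252763, minus strand) and KLF5 (chromosome 13, 73629114 to 73651679, plus strand) carried H3K4me3 over the TSS in all 4 libraries and no H3K27ac in the TSS window in any. Of the 10124 protein-coding genes with H3K4me3 over the TSS in all 4 libraries, 642 (6.34%) had no H3K27ac in the window in any library. At KLF4, H3K4me3 over the gene body plus 20 kb covered 1867 and 2761 bp in ATRA and 2526 and 1447 bp in control, with overlapping groups, and H3K27ac covered 0 bp in each of the 4 libraries. Its TSS peaks were among the shortest, longer than 2.23% to 6.20% of the TSS peaks of their library. The nearest H3K27ac peak was 24162 bases upstream in ATRA replicate 1 and 122508 to 123757 bases upstream in the other 3 libraries.

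At KLF5, a factor of proliferating epithelia, H3K4me3 over the gene body plus 20 kb covered 3854 and 3857 bp in ATRA and 5385 and 4032 bp in control. Both ATRA libraries were below both control libraries, before and after scaling. The log2 difference was -0.22 ± 0.17 (SE, n = 2 per group), with an adjusted p of 0.622 by limma. The distance to control replicate 2 was small, and the log2 ratio of means was -0.05 without control replicate 1 and -0.40 without control replicate 2. Under a −log10 q of at least 5 the log2 change turned to 0.58. H3K27ac near KLF5 was limited to 512 bp in ATRA replicate 2 and 1327 bp in control replicate 2, all of it outside the TSS window.

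KLF1, the erythroid factor, lies on chromosome 19 (12995236 to 12998015, minus strand) with the TSS of DNASE2 at a distance of 5752 bases and that of GCDH at 3959 bases, inside its flanks. H3K27ac over the gene body plus 20 kb covered 1775 and 2451 bp in ATRA and 340 and 1515 bp in control. The groups did not overlap, but the log2 change turned from 0.69 to -0.08 once peaks over the TSS of other genes were left out, and the groups overlapped after scaling. None of the 4 H3K27ac libraries had a peak over the KLF1 TSS. H3K4me3 was long and overlapping, at 13612 and 10701 bp in ATRA and 13805 and 9648 bp in control. Without control replicate 2 the H3K27ac log2 change was 1.22, and without control replicate 1 it was 0.31.

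Among the repressors, KLF3 (chromosome 4, 38665818 to 38703138, plus strand) was higher in both marks before scaling. H3K27ac over the gene body plus 20 kb covered 7421 and 9783 bp in ATRA and 1492 and 4152 bp in control. The ATRA libraries were above the control libraries before and after scaling. The log2 difference was 1.41 ± 0.50 (SE, n = 2 per group), with an adjusted p of 0.207 by limma. Both ATRA libraries and control replicate 2 had an H3K27ac peak over the TSS, of 5659, 8873 and 4152 bp, whereas the peak of control replicate 1 began 1372 bases downstream. A further stretch of 355 bp, 8766 to 9120 bases into the gene, was shared by the ATRA libraries and absent from both control libraries. Under a −log10 q of at least 5, only ATRA replicate 2 kept H3K27ac at KLF3, and the log2 change was 2.47.

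H3K4me3 at KLF3 was a single peak over the TSS in each library. It covered 8110 and 7540 bp in ATRA and 6906 and 6979 bp in control. The log2 difference of 0.15 ± 0.14 (SE, n = 2 per group) had an adjusted p of 0.669 by limma beside a median of 0.16 over all tested genes. After scaling, the log2 ratio was -0.06 and the groups overlapped.

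KLF9 (chromosome 9, 72999520 to 73029573, minus strand), a factor induced by thyroid and glucocorticoid hormone, was the member with lower H3K27ac in the TSS window. It covered 3683 and 3917 bp in ATRA and 4154 and 4544 bp in control. The log2 difference was -0.16 ± 0.26 (SE, n = 2 per group), with an adjusted p of 0.853 by limma, beside a median log2 difference of 0.32 over all tested genes. Over the gene body plus 20 kb the groups overlapped at 7100 and 6646 bp in ATRA and 6832 and 7479 bp in control. After scaling both ATRA libraries were below both control libraries in either region. The same pair of stretches was found in all 4 libraries, between positions -8191 and -3064 and from near the TSS into the first 2678 bases. The AT-rich promoter printed above lay at the inner edge of the downstream stretch, which began after the TSS in 2 libraries and reached 97 and 451 bases upstream of it in the other 2. H3K4me3 was long, at 12407 and 11381 bp in ATRA and 12145 and 8508 bp in control, with overlapping groups.

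KLF10, a gene induced early by TGF-β, was higher in H3K27ac through ATRA replicate 2. The length was 1250 and 7371 bp in ATRA and 958 and 855 bp in control in both regions. A single peak of 7371 bp lay over the TSS in ATRA replicate 2, and the other 3 libraries had none over the TSS. The log2 change of 1.48 became 0.24 without ATRA replicate 2, and limma gave 1.19 ± 0.70 (SE, n = 2 per group), with an adjusted p of 0.401. Scaled values overlapped. H3K4me3 was steady by comparison, at 6583 and 5915 bp in ATRA and 5930 and 5515 bp in control.

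KLF13 (chromosome 15, 31619038 to 31727868, plus strand), a factor known from T lymphocytes, had the longest H3K27ac of the 10 genes in control replicate 1 and in ATRA replicate 1. Over the gene body plus 20 kb it covered 37599 and 30558 bp in ATRA and 25260 and 23012 bp in control, without overlap. The log2 difference was 0.47 ± 0.30 (SE, n = 2 per group), with an adjusted p of 0.42 by limma, and lay below the median of all tested genes. The log2 ratio of means was 0.48, and after scaling this ratio turned to -0.47 with overlapping groups. Most of the length lay in 2 groups of peaks, both present in all 4 libraries. The first lay far inside the gene, between 24414 and 42444 bases after the TSS. The second lay between 105799 and 112912 bases and ran across the 3′ end of the gene into its flank. ATRA-only stretches, shared by both ATRA libraries and absent from both control libraries, lay 14065, 79201 and 115908 bases after the TSS, with shared lengths of 188, 40 and 1226 bp. The last of them was downstream of the 108831 bp gene.

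**Figure D3:**
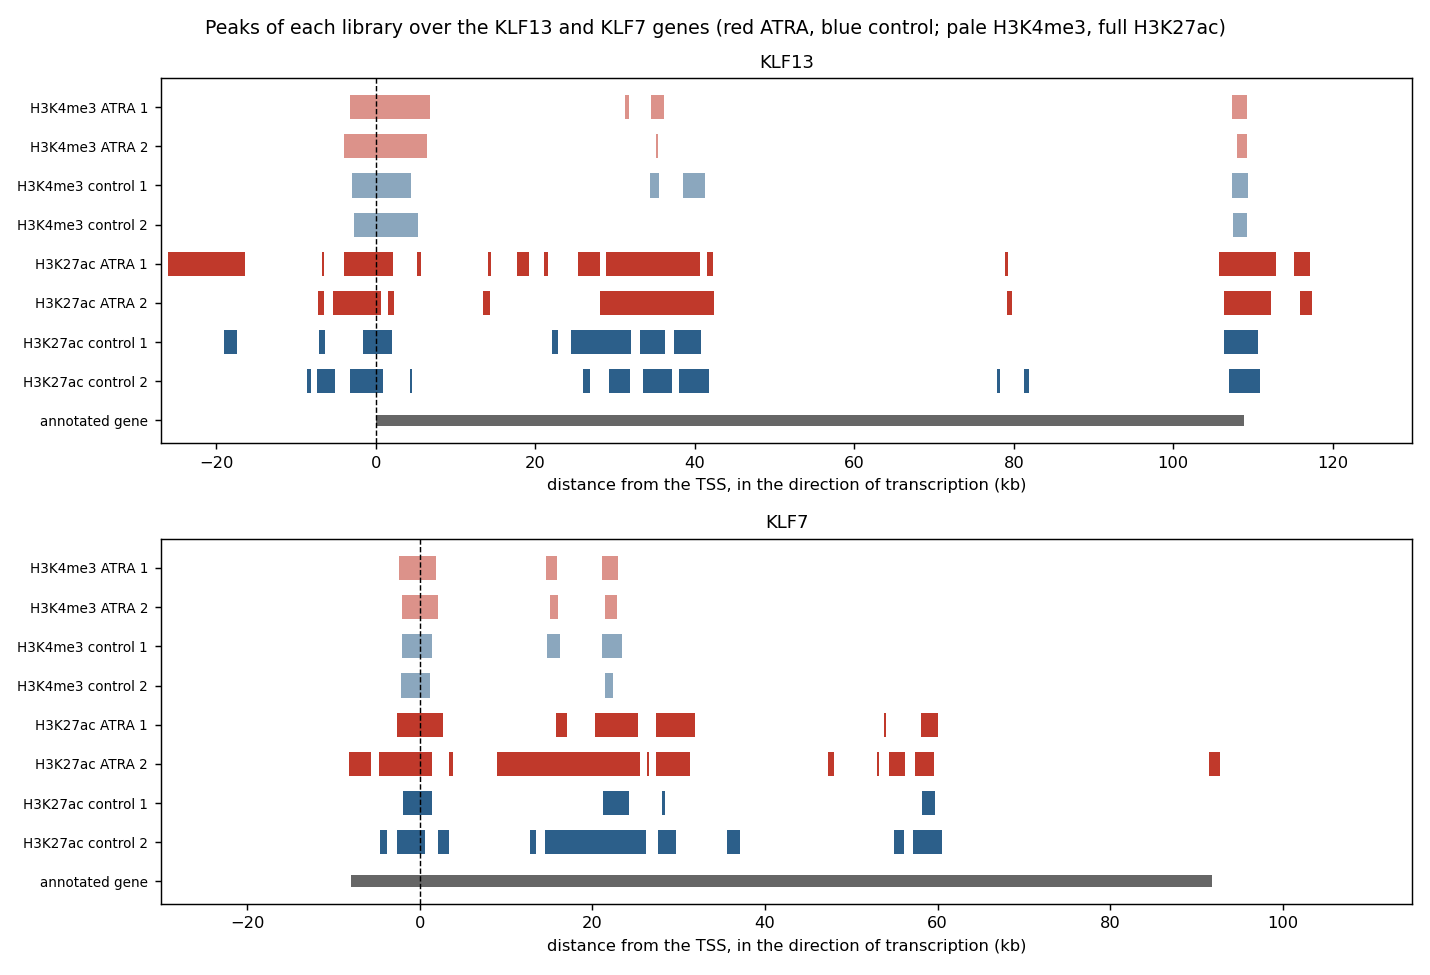
Peaks of each library (rows) by distance from the TSS (horizontal axis, kb, in the direction of transcription) at KLF13 and KLF7, with ATRA in red, control in blue, H3K4me3 pale, H3K27ac full and the annotated gene in grey. The intragenic H3K27ac of KLF13 near 30 to 40 kb is present in all 4 libraries, and the stretch of 1226 bp beyond the gene in the ATRA rows alone.

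In the plain order of H3K4me3 in the TSS window of control cells, the means ran from 8250.5 bp at KLF9 through 7627.5 bp at KLF13, 6942.5 bp at KLF3, 6617.0 bp at KLF1, 5722.5 bp at KLF10, 4466.5 bp at KLF5, 4462.5 bp at KLF6, 3393.5 bp at KLF7 and 1837.5 bp at KLF4 to 1281.5 bp at KLF2. Neighbours in this order whose libraries overlapped were KLF9 and KLF13, KLF3 and KLF1, KLF1 and KLF10, KLF5 and KLF6, and KLF4 and KLF2. The window of KLF1 also holds the TSS of GCDH, so its length is not that of the KLF1 promoter alone. The H3K4me3 peak over the KLF1 TSS itself was 7789 bp long in control replicate 1 and 769 bp in control replicate 2. For H3K27ac in control the means were 4349.0 bp at KLF9, 4343.5 bp at KLF7 and 4070.0 bp at KLF13, which overlapped, then 2981.0 bp at KLF6 and 2822.0 bp at KLF3, which also overlapped, then 906.5 bp at KLF10 and 757.5 bp at KLF1, which overlapped too, and 0 bp at KLF2, KLF4 and KLF5. These sets were not separate from each other. KLF3, at 1492 and 4152 bp, also overlapped KLF7 and KLF13. KLF1, at 0 and 1515 bp, also overlapped KLF3 and the genes at 0 bp. By its means, KLF2 stood last of the 10 in H3K4me3 in either group and after KLF3, KLF13 and KLF7 in H3K27ac in ATRA, with a mean of 4886.0 bp. Its H3K27ac in the ATRA libraries, at 5946 and 3826 bp, overlapped that of KLF3, KLF7, KLF6, KLF9 and KLF10. Its place in that order is therefore not established.

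An H3K4me3 peak lay over the TSS in all 4 libraries at 8 of the 10 genes, the exceptions being KLF1 and KLF2, beside 50.4% of all protein-coding genes. An H3K27ac peak lay over the TSS in all 4 libraries at KLF7 and KLF13 (19.5% of all genes), and in none at KLF1, KLF2, KLF4 and KLF5 (56.5% of all genes). Peaks shared by both replicates of a group were also sorted by whether they overlap such peaks of the other group by at least 1 bp, as the study did, with the choice made here to count the peaks of replicate 1. The 10 gene regions held 11 ATRA-specific, 14 overlapping and 0 control-specific H3K27ac peaks, where the regions of all protein-coding genes held 43.3%, 49.3% and 7.40%. KLF13 held 4 of the ATRA-specific ones and KLF2 held 2, and 8 of the 11 were absent from both control libraries. Over all genes, 4568 of 8159 ATRA-specific peaks were absent from both, or 24.2% of the peaks of every class. For H3K4me3 there were 4 ATRA-specific, 12 overlapping and 0 control-specific peaks, beside 12.8%, 85.0% and 2.27% over all genes. Of those 4, 0 were absent from both control libraries, beside 703 of 1673 ATRA-specific peaks over all genes, or 5.36% of the peaks of every class.

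**Figure D4:**
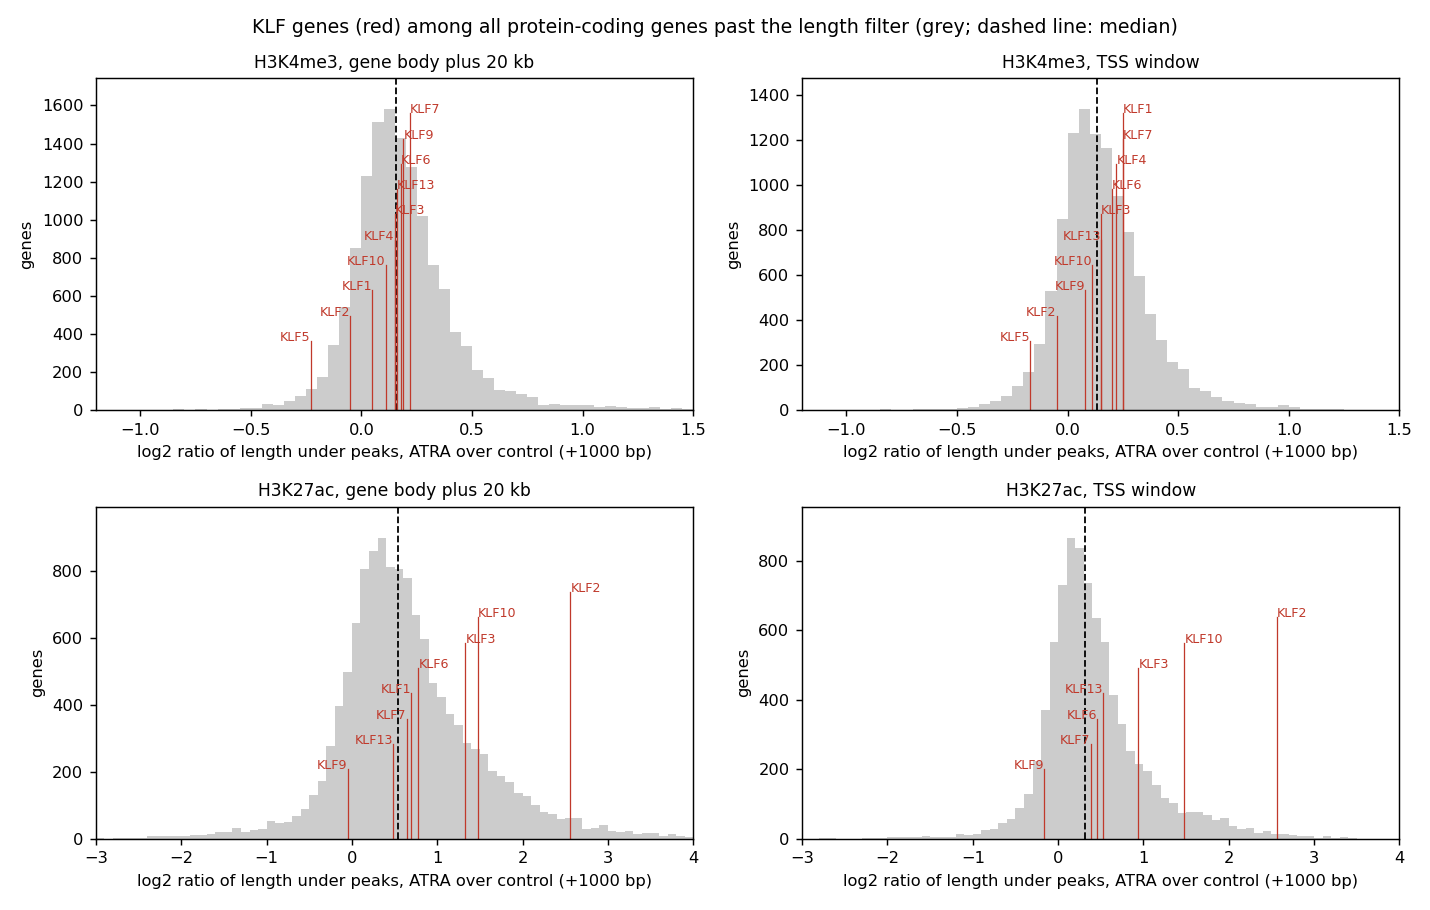
Log2 ratio of the length under peaks (horizontal axes, ATRA over control after adding 1000 bp) for all protein-coding genes with a mean of at least 1000 bp (grey, number of genes on the vertical axes), with the KLF genes past this filter as red lines of arbitrary height and the median as a dashed line. KLF2 lies at 2.56 for H3K27ac in both regions, and the KLF genes lie between -0.23 and 0.25 for H3K4me3.

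Genes that act with the family were counted the same way over the gene body plus 20 kb. Of all protein-coding genes, 33.7% were higher and 2.97% lower in H3K27ac there, and 30.1% were higher and 2.46% lower in H3K4me3. Of 16 other KLF and SP genes, 8 were higher and 0 lower in H3K27ac, and 3 were higher and 0 lower in H3K4me3. SP1, a ubiquitous GC box factor, and SP6 were higher in both marks, with H3K27ac log2 changes of 1.46 and 1.35. At SP6 this lay in the flanks, since its TSS window held 0 bp of either mark in all 4 libraries, and the H3K27ac was short, at 1459 and 2199 bp in ATRA and 0 and 220 bp in control, under the filter of a mean of 1000 bp. Of 11 cofactors and modifiers, 7 were higher and 1 lower in H3K27ac and 6 higher and 0 lower in H3K4me3. The corepressor SIN3B and the deacetylase HDAC1 were higher in both, with H3K27ac log2 changes of 2.91 and 1.87, as were FBXW7, a ubiquitin ligase subunit, with 1.63, and the acetyltransferase EP300, with 0.63. Of 11 known target genes of KLF factors, 7 were higher and 1 lower in H3K27ac and 3 higher and 1 lower in H3K4me3. ENG, a TGF-β coreceptor, and EPB42, an erythrocyte membrane gene, were higher in both marks, with H3K27ac log2 changes of 2.03 and 1.68. At ENG both marks were also higher in the TSS window, whereas that of EPB42 held 0 bp of H3K4me3 in all 4 libraries and H3K27ac in ATRA replicate 2 alone, at 952 bp. AHSP, an erythroid chaperone, was lower in H3K4me3, with a log2 change of -0.16, and higher in H3K27ac, with 0.25, and its TSS window held 0 bp of either mark in all 4 libraries. After scaling, 4 of the 16 KLF and SP genes, 3 of the 11 cofactors and 4 of the 11 targets were higher in H3K27ac and 1, 2 and 2 were lower. For H3K4me3, 2, 3 and 2 were then higher and 1, 2 and 3 lower. The scaled shares over all protein-coding genes were 14.1% higher and 19.3% lower in H3K27ac, and 11.6% higher and 18.5% lower in H3K4me3. SP1, SP6, SIN3B, HDAC1 and EPB42 were higher in both marks on either scale. After scaling, ENG was higher in H3K27ac alone, EP300 was higher and AHSP lower in H3K4me3 alone, and FBXW7 overlapped in both marks. The unscaled median H3K27ac log2 changes of these lists were 0.56, 0.60 and 0.56, beside 0.27 over all protein-coding genes and 0.54 over those past the filter.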

How the data were processed

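ChIP-seq of H3K4me3 and H3K27ac in HL-60 cells was analyzed from 8 libraries. Per the study's methods, the authors removed adapters, mapped reads to hg19 (Bowtie) and ran MACS2 in its broad mode on every library. The deposited peak starts and ends were used. The deposited −log10 q of each peak served only as a filter, with 5 as the stricter minimum. The deposited fold and −log10 p columns held values these measures cannot take and were not used. All peaks lay within GRCh37 chromosomes, and genes and canonical TSS came from GENCODE release 44 mapped to that genome.

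Lengths under peaks were compared as described above, and limma was run with trend and robust variance on log2(bp + 1000) of all protein-coding genes with a mean of at least 1000 bp, with Benjamini-Hochberg adjustment over them. All 10 members were named. Other genes were named where the groups did not overlap for both marks, at most 4 per list, and single peaks where both replicates of only 1 condition held them. Members and lists were chosen with earlier results of these data known. The fit and the overlap code were tested on simulated data. Alternatives were the flank, the −log10 q minimum, a peak length of at least 1 kb, scaling by total length, the pseudocount, peak numbers, peaks over the TSS of other genes, the filter, the class rules, the replicate block and leaving out each library. Added after seeing the data were the block in the TSS window, the scaled values of that window and of the other lists, and the counts over all genes of each pattern of peaks at the TSS, of peak classes and of directions within numbers. Python 3.11.15, numpy 2.4.6, pandas 2.3.3, matplotlib 3.10.9 and limma 3.58.1 were used. p-values measure the spread between 2 replicates, which may be technical.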

Additional observations from a re-analysis of the deposited data

How the results depend on the processing

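With 2 libraries per group and unknown depth, a difference near the spread of the replicates cannot be told from it. Scaling by the total length under peaks moved the median H3K27ac log2 change of the 10 genes from 0.67 to 0.02 and the H3K4me3 median from 0.15 to -0.05. Counts of genes without overlap became 3 for H3K27ac (6 unscaled) and 1 for H3K4me3 (2 unscaled), KLF13 turned to -0.47 in H3K27ac and KLF3 to -0.06 in H3K4me3. A −log10 q of at least 5 left 2 and 1 such genes, a median of 0.00 for H3K27ac, an H3K4me3 peak over the TSS in all libraries at 5 genes (8 before) and an H3K27ac peak at 0 (2 before), with KLF5 at 0.58 in H3K4me3 and KLF1 at -0.53 in H3K27ac. A flank of 50 kb left 3 genes for H3K27ac, with KLF2 at 0.71 and KLF1 at -0.26, and without peaks over the TSS of other genes KLF1 was at -0.08. Peak numbers left 2 genes for H3K27ac and 0 for H3K4me3, and allowing 1 kb around the TSS gave 5 genes with H3K27ac there. Leaving out each library gave 6 to 8 genes and medians of 0.38 to 1.14 for H3K27ac, and 3 to 10 genes and medians of -0.04 to 0.37 for H3K4me3, with fewer libraries to overlap. Apart from scaling, no share over all genes is given for these settings. The counts of members therefore have no background beside them and are not a result about the members. In the limma fits without 1 library, which follow, the lone library of a group is assumed to vary like the other group.

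The number of genes called by limma varied most. For H3K4me3 it was 15, of which 12 were higher, and 0 in the TSS window, 150 after scaling, of which 104 were higher, 407 with no filter, 0 with 200 bp added and 0 to 133 without each library. For H3K27ac it was 0, with 15 in the TSS window, 7 with no filter and 0 to 1089 without each library. The libraries share only a number and a tag in the peak names that the labels do not explain, and with 2 numbers a pairing is not established. Same-numbered libraries deviated together from their group means, with correlations across genes of 0.266 for H3K4me3 and 0.563 for H3K27ac. With the replicate block 548 and 3601 genes were called, the latter 28.1% of those tested, with 1 residual degree of freedom per gene. KLF2 (adjusted p = 0.0027) and KLF3 (0.0141) were then called for H3K27ac. KLF2 entered this fit, too, only through its ATRA libraries, so its p is no support for a difference. The members with the same direction within both numbers came to 7 for H3K4me3 (2 without overlap) and 7 for H3K27ac, beside 44.8% and 54.3% of all genes. Why the count varied was not tested.

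H3K4me3 held 4 ATRA-specific peaks in the member regions, 0 when absent from each control library and 0 to 6 without each library. Its 0 control-specific peaks became 1 with replicate 2 as base, 1 with 50% reciprocal overlap, 2.5 on average within the replicate block and 0 to 3 without each library. H3K27ac held 8 to 19 ATRA-specific peaks without each library (11 with all), 5 overlapping peaks with 50% reciprocal overlap and 14 to 17 without each library (14 with all). Its 0 control-specific peaks became 1 with replicate 2 as base, 3 with 50% reciprocal overlap, 6 within the replicate block and 0 to 13 without each library.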
